A study of Mus musculus with 3 samples.

Results

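The genes of oxidative phosphorylation were followed through the cell types of the mouse kidney cortex after sham surgery and 24 h after ischemia-reperfusion injury (IRI). They were chosen by symbol alone: names that start with mt-Nd, mt-Co, mt-Cyt, mt-Atp, Ndufa, Ndufb, Ndufc, Ndufs, Ndufv, Sdh with a letter from a to d, Uqcr, Cox4 to Cox8 or Atp5, with at least 50 unique molecular identifiers (UMIs, each the tag of 1 captured RNA molecule) over all cells. Of 22535 genes counted, 109 had such a name and 107 passed the limit, since Cox8b had 2 UMIs and Cox8c had 21. The mitochondrial genome encodes 13 of them, and 94 are nuclear genes. The nuclear genes comprise 36 for complex I, 4 for complex II, 8 for complex III, 17 for complex IV and 15 for complex V. The symbols also take in 12 assembly factors (Ndufaf and Sdhaf genes), the supercomplex factor Cox7a2l, and Atp5s, which is not a subunit.

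Oxidative phosphorylation passes electrons from NADH (complex I) and succinate (complex II) through complex III and cytochrome c to oxygen at complex IV, and complex V uses the resulting proton gradient to make ATP. All complexes but complex II combine subunits made from mitochondrial DNA with imported subunits made from nuclear genes, so that 2 genomes supply 1 machine. In the kidney, the proximal tubule and the salt-transporting distal segments are rich in mitochondria, whereas podocytes hold fewer, and the tubules depend on this supply of ATP for transport.

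Single cells of the renal cortex were captured with BD Rhapsody in 3 libraries. The mice were WT1CreERT2; Rosa26-tdT fl/+, in which tamoxifen-activated Cre under the Wt1 promoter switches on the red protein tdTomato (tdT) in Wt1-expressing cells and their descendants. All 3 groups carried both alleles. Sham was made after sham surgery from tdT+ and tdT- cells mixed 2:1, IRI24h-TDN from the same mixture 24 h after severe bilateral IRI, and IRI24h-TD from tdT+ cells alone at that time after IRI. Each library pools 4 kidneys, so every condition is 1 sample, differences have no replicate check, and there are no tests.

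Intervals in parentheses are exact 95% intervals (Clopper-Pearson for shares, Poisson for levels) and cover counting error only. A gene was called higher or lower where its level differed at least 1.5-fold between 2 groups of cells that together had at least 50 of its UMIs. Levels of nuclear genes are given in CPM, the share of non-mitochondrial UMIs scaled to a fixed total, summed over the cells of a class in a library, and mitochondrial-encoded genes are given as a percentage of all UMIs. A UMI counts a molecule and not its bases, so no value was divided by gene length.

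The libraries held 69980443 UMIs (Sham), 92355554 (IRI24h-TDN) and 93470709 (IRI24h-TD), and 8047, 9024 and 9689 cells were kept. Any 2 libraries shared between 102 and 114 cell barcodes. Classes were named from marker genes, and the OXPHOS genes took no part in the clustering. There were 18320 podocyte-like cells, 2013 like parietal epithelial cells (PECs), 1288 like proximal tubule epithelial cells (PTECs), 600 ascending limb-like, 587 distal convoluted tubule-like, 594 connecting tubule and principal-like, 548 intercalated-like, 776 mesangial and mural-like, 315 endothelial-like and 1200 monocytic-like cells. IRI24h-TD had at least 50 cells only in the podocyte-like, PEC-like and PTEC-like classes. Among the podocyte-like cells, depth was similar in all libraries, with median UMIs per cell of 8232, 9313.5 and 9528.5 in the order Sham, IRI24h-TDN and IRI24h-TD. The PTEC-like cells were deeper in IRI24h-TDN (median 15425 UMIs) than in Sham (6800), and so were the ascending limb-like cells (10231 and 6129).

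Sequences are shown first for the features that bear on the counts. Of the 94 nuclear members, 77 had a promoter (250 bases before to 50 after the gene start) in the RefSeq table of GRCm38.p6. The motif of nuclear respiratory factor 1 (NRF-1), a transcription factor known to act on OXPHOS genes, was found on either strand in 20 of these 77 (26.0%) and in 4.78% of all 27025 promoters. The motif of YY1 stood in 5 members (6.49%) and 0.899% of all. TCAAGGTCA, the letters of the estrogen-related receptors, stood in 2 members (2.60%) and 0.407% of all. The hypoxia core ACGTG was present in 17 members (22.1%), near its share of all promoters (19.7%). Searches covered both strands, the palindromic NRF-1 motif can match both strands at 1 place, and a match is a description of letters and not of binding. Atp5g3 (chr2:73911277-73911576, minus strand), which encodes a ring subunit of complex V, and Cox6a1 (chr5:115348909-115349208, minus strand), a complex IV subunit, are printed because both are among the members with the most UMIs in their complexes, with the NRF-1 motif on either strand in capitals.
Atp5g3 promoter: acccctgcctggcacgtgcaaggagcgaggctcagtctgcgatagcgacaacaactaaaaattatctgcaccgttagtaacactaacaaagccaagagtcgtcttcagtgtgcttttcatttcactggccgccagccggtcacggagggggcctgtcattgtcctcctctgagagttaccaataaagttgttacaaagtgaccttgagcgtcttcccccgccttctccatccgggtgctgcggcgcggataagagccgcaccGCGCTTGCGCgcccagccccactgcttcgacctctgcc
Cox6a1 promoter: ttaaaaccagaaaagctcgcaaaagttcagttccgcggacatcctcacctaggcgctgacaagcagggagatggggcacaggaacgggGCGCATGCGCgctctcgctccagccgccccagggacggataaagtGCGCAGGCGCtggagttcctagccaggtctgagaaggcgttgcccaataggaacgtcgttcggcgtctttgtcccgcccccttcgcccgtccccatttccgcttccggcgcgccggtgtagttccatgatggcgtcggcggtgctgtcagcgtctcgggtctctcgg

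The other sequence bears on how mitochondrial-encoded genes can be counted. mt-Nd4l, a complex I subunit, lies at chrM:9877-10173 (plus strand, GRCm38) and is 297 bases long. Its first 294 bases were set beside Gm10222, an annotated pseudogene at chr1:24612407-24612700 (minus strand), and differed at 0 positions, so the printed sequence is that of both and no base is in capitals.
mt-Nd4l and Gm10222: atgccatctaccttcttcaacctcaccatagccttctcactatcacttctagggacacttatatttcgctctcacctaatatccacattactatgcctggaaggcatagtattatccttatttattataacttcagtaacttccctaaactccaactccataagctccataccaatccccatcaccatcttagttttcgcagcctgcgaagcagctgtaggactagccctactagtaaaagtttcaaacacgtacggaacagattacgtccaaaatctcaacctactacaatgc

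The mitochondrial-encoded genes took the largest share of UMIs in the ascending limb and distal convoluted tubule and the smallest in podocytes, endothelium and monocytic cells. In Sham the 13 genes together held 25.8% of all UMIs (25.8 to 25.9) in ascending limb-like cells, 24.8% in distal convoluted tubule-like, 21.9% in intercalated-like, 18.4% in connecting tubule and principal-like and 17.8% (17.8 to 17.8) in PTEC-like cells. Mesangial and mural-like cells had 9.84% and PEC-like cells 6.92%. Podocyte-like cells had 4.21% (4.20 to 4.22), endothelial-like cells 3.66% and monocytic-like cells 3.54%. These are the only genes with the prefix mt- in the tables, so their share is also the usual measure of cell quality, and cells above 50% had been left out.

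**Figure D1:**
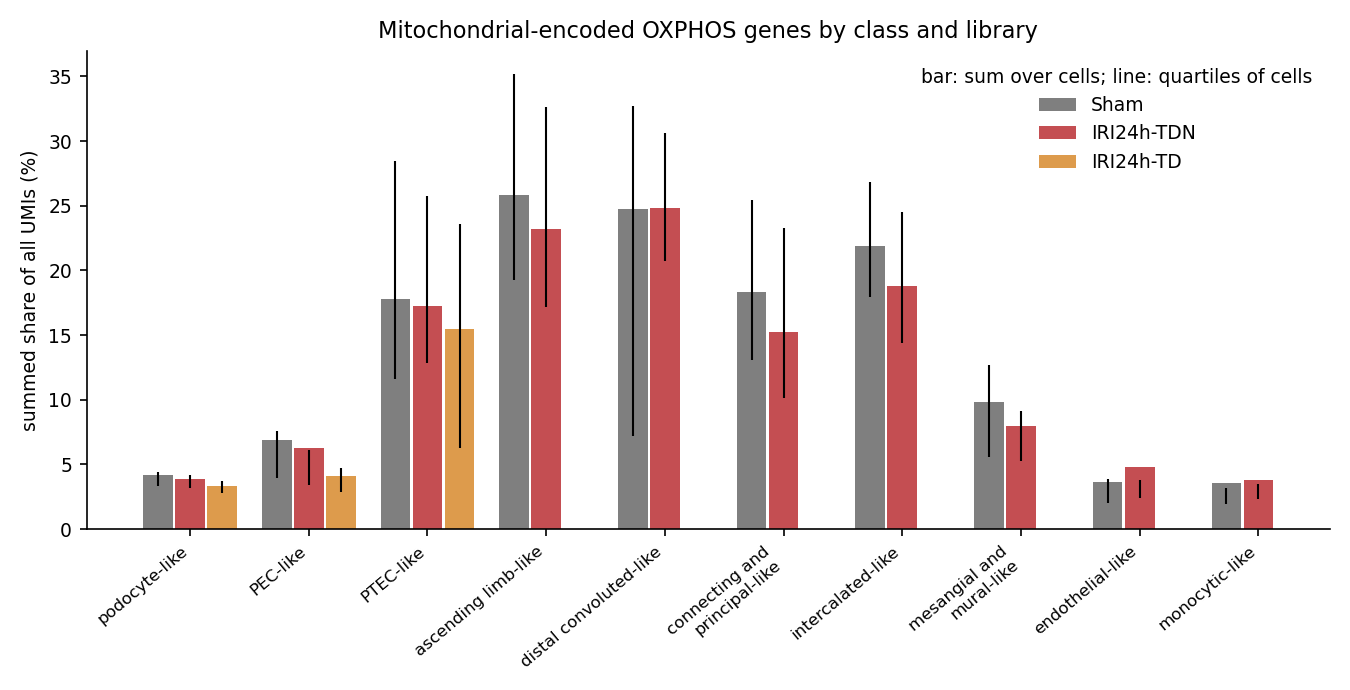
Summed share of the 13 mitochondrial-encoded genes among all UMIs (%, vertical axis) by class and library, for class and library pairs of at least 50 cells. Bars are sums over cells and black lines the quartiles of single cells: the 4 distal tubule classes and the PTEC-like cells stand between 15.3% and 25.8%, the podocyte-like, endothelial-like and monocytic-like bars under 5%.

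Between Sham and IRI24h-TDN this share moved little in the classes of the study's interest. It was 4.21% and 3.88% (3.88 to 3.89) in podocyte-like cells, a log2 difference of -0.12, and 17.8% and 17.2% (17.2 to 17.3) in PTEC-like cells, a log2 difference of -0.05. In PEC-like cells it was 6.92% and 6.29%, a log2 difference of -0.14, which turned to 0.03 without a PEC-like cluster of 966 cells that was rich in podocyte genes and to 0.83 without correction between libraries. The PTEC-like difference also turned, to 0.31, in cells with 5000 to 20000 UMIs and to 0.16 with a limit of 20% mitochondrial UMIs, so no direction is read for either class.

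The share was lower in IRI24h-TDN in 7 of 10 classes, the PEC-like and PTEC-like cells included. It was 15.3% against 18.4% in connecting tubule and principal-like cells, 18.8% against 21.9% in intercalated-like cells, 23.2% against 25.8% in ascending limb-like cells and 7.94% against 9.84% in mesangial and mural-like cells. It was 24.8% in both libraries in distal convoluted tubule-like cells. Endothelial-like cells (4.81% against 3.66%) and monocytic-like cells (3.79% against 3.54%) were on the other side, but the endothelial-like difference turned to -0.14 on the log2 scale without the limit on mitochondrial UMIs, the monocytic-like one to -0.06 as a mean over cells, and the ascending limb-like one to 0.37 with a limit of 20%. No class reached a 1.5-fold difference.

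Single mitochondrial-encoded genes split into an abundant and a nearly silent set. mt-Co1 (the catalytic subunit of complex IV), mt-Cytb (cytochrome b of complex III), and mt-Nd1, mt-Nd2, mt-Nd4, mt-Nd5 and mt-Nd6 (the membrane arm of complex I) each held at least 0.249% of UMIs in every class compared. In Sham ascending limb-like cells mt-Cytb held 5.80%, mt-Nd4 4.05%, mt-Nd2 3.96%, mt-Co1 3.88%, mt-Nd1 3.28%, mt-Nd6 2.45% and mt-Nd5 2.37%. In Sham podocyte-like cells mt-Cytb held 1.01%, mt-Nd2 0.730%, mt-Nd4 0.710%, mt-Co1 0.545%, mt-Nd1 0.528%, mt-Nd6 0.354% and mt-Nd5 0.333%. The set is the same in both classes, and every one of these 7 genes was higher in the ascending limb.

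The other 6 genes were barely counted in any class or library. In Sham ascending limb-like cells mt-Nd3 held 0.0161% of UMIs, mt-Atp6 0.00756%, mt-Co2 0.00515%, mt-Co3 0.00218%, mt-Nd4l 0.00114% and mt-Atp8 0.000229%. mt-Co2 and mt-Co3 make the core of complex IV with mt-Co1, and mt-Atp6 and mt-Atp8 belong to complex V. The share of 50-base stretches that recurs in another annotated gene was 100% for mt-Co2, 99.9% for mt-Co3, 99.5% for mt-Atp6, 98.8% for mt-Nd4l (the sequence printed above) and 98.0% for mt-Nd3, each time mostly in unprocessed pseudogenes that have no line in the count tables. It was 0.0% for mt-Cytb, mt-Nd1 and mt-Nd6, 7.61% for mt-Nd5, 8.19% for mt-Nd2, 51.1% for mt-Co1 and 62.2% for mt-Nd4. mt-Atp8 is an exception, with 0.0% and yet few UMIs. On the last 400 bases alone the abundant mt-Co1 is another, with 100% as for mt-Co2, while mt-Nd4 had 0.0% there. How the authors' counting treated reads that fit several genes is not given in the sources used here, and its part in these low counts was not tested.

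Among the abundant set, mt-Nd2 was lower in IRI24h-TDN in 10 of 10 classes, with a log2 difference from -0.69 to -0.03. In podocyte-like cells it held 0.730% of UMIs in Sham and 0.486% in IRI24h-TDN, and in connecting tubule and principal-like cells 3.05% and 1.89%. mt-Cytb and mt-Nd4 were lower in 9 of 10 classes each (endothelial-like cells being the exception), whereas mt-Co1 was higher in 7 of 10 (log2 from -0.03 to 0.72) and mt-Nd6 in 6. In PTEC-like cells mt-Co1 held 1.75% in Sham and 2.66% in IRI24h-TDN, while mt-Nd2 went from 3.52% to 2.47%. Genes of the same genome thus differed in opposite directions between these libraries, and no cause was tested.

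In Sham the summed nuclear-encoded genes were also highest in the tubule classes, with the ascending limb behind the distal convoluted tubule and intercalated cells. Their summed level was 64080 CPM (63390 to 64770) in distal convoluted tubule-like cells, 56930 in intercalated-like, 51890 in ascending limb-like, 40140 in connecting tubule and principal-like and 31760 in PTEC-like cells. Mesangial and mural-like cells had 20690, PEC-like cells 20650, podocyte-like cells 13770, endothelial-like cells 12310 and monocytic-like cells 7901 (7744 to 8060). Mesangial and mural-like and PEC-like cells do not differ beyond their intervals, and all other neighbours in this order do, by counting error alone. Over single cells the medians were 52350 CPM in distal convoluted tubule-like, 53620 in intercalated-like and 53790 in ascending limb-like cells. The order of these classes thus holds for the sums alone.

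**Figure D2:**
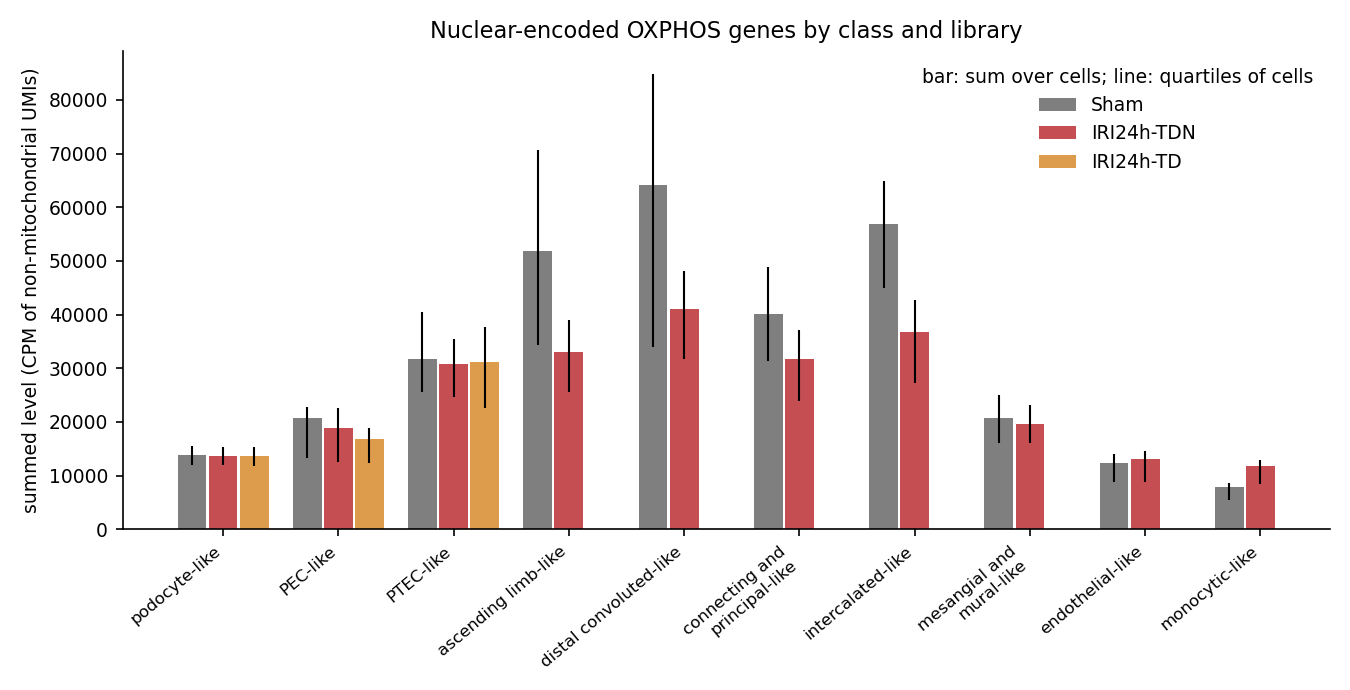
Summed level of the 94 nuclear-encoded genes (CPM of non-mitochondrial UMIs, vertical axis) by class and library, for class and library pairs of at least 50 cells. Bars are sums over cells and black lines the quartiles of single cells: the ascending limb-like, distal convoluted tubule-like and intercalated-like bars are lower in IRI24h-TDN than in Sham, the monocytic-like bar is higher, and the podocyte-like bars lie between 13610 and 13770 CPM.

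In the distal nephron the nuclear-encoded genes were lower after IRI. Their sum was 51890 CPM in Sham and 32950 in IRI24h-TDN in ascending limb-like cells (0.635-fold), 64080 and 40990 in distal convoluted tubule-like cells (0.640-fold), 56930 and 36710 in intercalated-like cells (0.645-fold) and 40140 and 31700 in connecting tubule and principal-like cells (0.790-fold). The few cells of these classes in IRI24h-TD had 29690 CPM (14 cells), 35910 (24 cells), 37620 (12 cells) and 28880 (29 cells), in the same order of classes, all under the Sham value. Over single cells the quartiles of intercalated-like cells were 45030 and 64910 CPM in Sham and 27220 and 42690 in IRI24h-TDN, spans that do not overlap, whereas in ascending limb-like cells they were 34330 and 70730 against 25660 and 38940, which do. Distal convoluted tubule-like cells numbered only 63 in Sham and 500 in IRI24h-TDN. Their quartiles, 34010 and 84930 against 31690 and 48150 CPM, overlap as well, with medians of 52350 and 39950.

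Counted gene by gene, 40 of 88 members tested were called lower in ascending limb-like cells and 5 higher, where 22.5% of all genes were lower and 15.5% higher. In distal convoluted tubule-like cells 41 of 90 were lower and 2 higher, against 19.8% and 20.3% of all genes. In intercalated-like cells 43 of 90 were lower and 0 higher, against 15.6% and 14.3%. Connecting tubule and principal-like cells had 16 of 88 lower and 1 higher, near the 17.4% of all genes that were lower there and under the 14.1% that were higher. The median log2 difference of the members was -0.55, -0.53, -0.57 and -0.27 in these 4 classes, and that of all genes tested -0.11, -0.02, -0.07 and -0.07. With a limit of 20% mitochondrial UMIs cells clustered anew gave 67 ascending limb-like cells in Sham and 282 in IRI24h-TDN, no cluster was named distal convoluted tubule, and the ascending limb-like summed log2 difference went from -0.66 to -0.21 with 15 members lower. With TMM scaling 23 members were lower and 6 higher in ascending limb-like cells, where 14.5% and 23.6% of all genes were, and with median-of-ratios scaling 24 and 6, against 15% and 22.7%.

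The members called higher in ascending limb-like cells were Sdhaf3, an assembly factor of complex II (6.18 and 14.9 CPM, log2 1.27, from few UMIs in Sham), Atp5l (1.06), Ndufaf5 (0.80), Ndufaf1 (0.80) and Ndufb2 (0.62). The lowest there after Cox7c were Uqcr11 (-2.43), Ndufs3 (-2.23), Ndufab1 (-1.73) and Cox7a1 (-1.50). In distal convoluted tubule-like cells the higher members were Sdhaf3 (3.84 and 14.9 CPM, log2 1.96) and Atp5s (13.4 and 30.3 CPM, log2 1.17), both from few UMIs in Sham. The lowest there after Cox7c were Cox7a1 (-2.52), Uqcr11 (-2.51), Atp5g2 (-2.08) and Ndufs3 (-2.06). In intercalated-like cells these were Ndufs5 (-2.45), Uqcr11 (-2.33), Cox7a1 (-2.32) and Ndufs3 (-2.20), and in connecting tubule and principal-like cells Cox7a1 (-3.06), Ndufs3 (-2.09), Uqcr11 (-2.06) and Ndufab1 (-1.25). Atp5l (0.89) was the member called higher in connecting tubule and principal-like cells. Uqcr11 and Ndufs3, subunits of complexes III and I, thus stood among the 5 lowest in all 4 distal classes. Both were lower in all 10 classes compared, so this is not particular to the distal ones.

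By complex, the lower calls in ascending limb-like cells were 14 of 36 for complex I, 2 of 4 for complex II, 4 of 8 for complex III, 9 of 12 for complex IV and 8 of 14 for complex V. In intercalated-like cells they were 14 of 36, 1 of 4, 4 of 8, 9 of 13 and 11 of 15. In distal convoluted tubule-like cells they were 13 of 36, 3 of 4, 4 of 8, 10 of 13 and 9 of 15. Of all genes, 22.5%, 15.6% and 19.8% were lower in these 3 classes, in the same order. The complex IV median was the lowest of the 5 complexes in each of these 3 classes, at -0.83, -0.76 and -0.77 in that order. These counts hold on the CPM scale. With TMM scaling Cox4i1, Cox5b and Ndufa4 of complex IV were no longer called lower in ascending limb-like cells. Neither were Atp5a1, Atp5b, Atp5g1 and Atp5o of complex V.

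For complex I in ascending limb-like cells, Ndufa2 stood at 786 CPM in Sham and 906 in IRI24h-TDN and Ndufa1 at 748 and 685, both within 1.5-fold. For complex II, Sdha, the flavoprotein that oxidises succinate, was at 640 and 331 CPM (log2 -0.95, -1.11 to -0.79), and Sdhd, its membrane anchor, at 624 and 495. For complex III, Uqcrh, the hinge protein, was at 1457 and 821 CPM (log2 -0.83), and Uqcrq at 741 and 653. One member of complexes II and III each was thus called lower, and the other stayed within 1.5-fold.

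For complex IV in ascending limb-like cells, Cox8a was at 2119 and 1084 CPM (log2 -0.97, -1.06 to -0.88), Cox4i1, a regulatory subunit, at 1835 and 1162, and Cox7a2 at 959 and 532. Ndufa4, once counted with complex I and now with complex IV, was at 981 and 595. Cox6a1, whose promoter is printed above, stood apart at 1562 and 1639 CPM (log2 0.07, -0.03 to 0.17). For complex V, Atp5a1, the alpha subunit of the catalytic head, was at 2949 and 1782 CPM (log2 -0.73, -0.80 to -0.65), whereas Atp5g3 was at 2513 and 2087 (log2 -0.27). In the case of Atp5g1, which encodes the same ring protein as Atp5g3, the levels were 1165 and 722 CPM. Cox8a, Cox4i1, Cox7a2, Ndufa4, Atp5a1 and Atp5g1 were called lower, and Cox6a1 and Atp5g3 were not. With TMM scaling Atp5a1 was at -0.50 on the log2 scale, Ndufa4 at -0.49, Atp5g1 at -0.46 and Cox4i1 at -0.43, all within 1.5-fold.

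Other genes of mitochondria, none of them members, were counted in the same classes. Of the regulators of mitochondrial biogenesis, 5 of 9 tested were lower and 0 higher in ascending limb-like cells, 6 of 10 lower and 1 higher in distal convoluted tubule-like cells, and 5 of 9 lower and 0 higher in intercalated-like cells. In ascending limb-like cells Ppargc1a, the coactivator of mitochondrial biogenesis, was at 309 and 119 CPM (log2 -1.38, -1.62 to -1.13), and Esrra, a receptor that works with it, at 133 and 42.8 (log2 -1.63). Lower Ppargc1a was not limited to these classes. It was the lowest regulator, and called lower, in podocyte-like, PEC-like, mesangial and mural-like and connecting tubule and principal-like cells. In PTEC-like cells the 2 regulators called lower were Ppargc1b and Esrra. Enzymes of the TCA cycle were lower in 7 of 13, 2 of 13 and 6 of 13 in the same order, with none higher. Genes of mitochondrial DNA expression were lower in 3 of 7, 4 of 6 and 4 of 7, other assembly factors in 8 of 20, 5 of 21 and 6 of 22 (with 2, 1 and 1 higher), carriers in 1 of 7, 1 of 7 and 2 of 7, and Cyc1 and Cycs both in all 3 classes. Mitochondrial ribosome genes gave 12 lower and 9 higher of 73 in ascending limb-like cells, 15 lower and 9 higher of 74 in distal convoluted tubule-like cells and 18 lower and 0 higher of 74 in intercalated-like cells. Several of these counts are near the shares of all genes given above, among them the TCA cycle and ribosome counts in distal convoluted tubule-like cells.

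The class markers moved as well. The summed markers of the ascending limb were at 31210 CPM in Sham and 6669 in IRI24h-TDN in their own class, and those of the distal convoluted tubule at 10680 and 4863 in theirs, while the intercalated list was at 14370 and 12500. Within the intercalated list Slc4a1, the anion exchanger of type A cells, was at 2096 and 154 CPM, and Slc26a4, pendrin of type B cells, at 1241 and 2553. Cluster 18, led by type A genes, held 131 of 182 intercalated-like cells in Sham and 159 of 354 in IRI24h-TDN, and cluster 19, led by type B genes, held 51 and 195. Within cluster 18 the nuclear OXPHOS sum was 57040 and 39990 CPM (log2 -0.51, -0.53 to -0.49), and within cluster 19 it was 56740 and 34900 (log2 -0.70, -0.72 to -0.68), so it was lower in both; this split was made after seeing the data. The PTEC list in these 3 classes went from between 548 and 607 CPM to between 13.9 and 26.1. The podocyte list stood at 3193 and 1480 CPM in ascending limb-like, 6722 and 3847 in distal convoluted tubule-like and 1992 and 3052 in intercalated-like cells. In distal convoluted tubule-like cells the ascending limb list went from 8077 to 1672 CPM and the connecting tubule and principal list from 4774 to 893. The part of these shifts in the lower OXPHOS levels was not tested. In cells with 5000 to 20000 UMIs the log2 differences of the nuclear sum were -0.65, -0.59 and -0.58 in the same order. That range does not match depth between libraries within it.

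**Figure D3:**
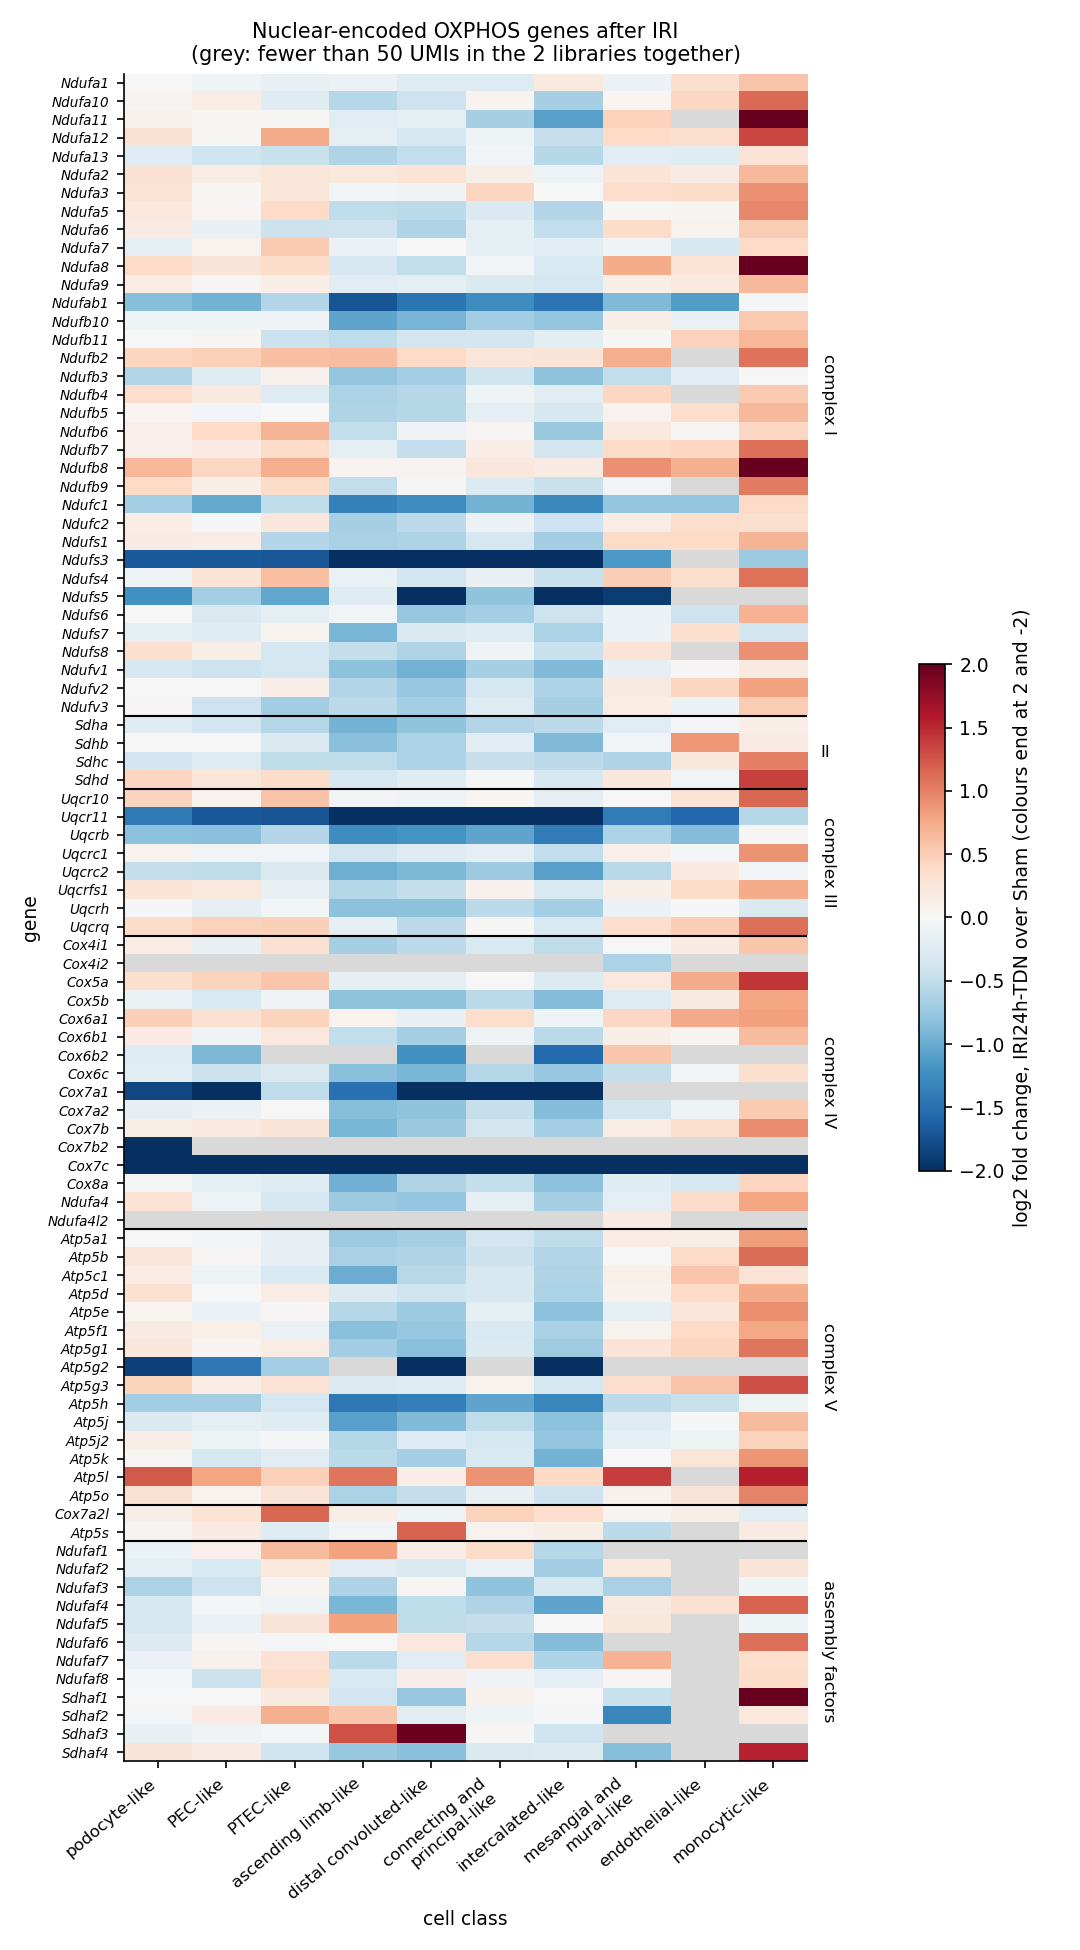
Log2 fold change from Sham to IRI24h-TDN (colour, blue lower and red higher, ending at 2 and -2) for nuclear-encoded genes (vertical axis, grouped by complex) in each class (horizontal axis), with grey for fewer than 50 UMIs. The columns of the distal tubule classes are mostly blue, the monocytic-like column is mostly red, and Cox7c is blue in all 10 columns.

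Monocytic-like cells went the other way. Their nuclear sum was 7901 CPM in Sham and 11840 (11750 to 11930) in IRI24h-TDN (log2 0.58, 0.55 to 0.61), and 11790 in the 13 such cells of IRI24h-TD. Of 84 members tested, 46 were called higher and 2 lower, where 31.5% of all genes were higher and 11.7% lower. The median log2 difference was 0.65 for members and 0.27 for all genes. The quartiles of single cells were 5397 and 8596 CPM in Sham and 8380 and 12860 in IRI24h-TDN. With TMM scaling 38 members were higher and 3 lower, against 25.7% and 15% of all genes.

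By complex, the higher calls in monocytic-like cells were 19 of 35 for complex I, 2 of 4 for II, 4 of 8 for III, 6 of 11 for IV and 11 of 14 for V, against 31.5% of all genes. For complex III 5 of 8 members were above 0, with a median log2 difference of 0.38, where that of all genes was 0.27. Ndufa8, a complex I subunit, had 16.4 CPM in Sham and 81.0 in IRI24h-TDN (log2 2.31, 1.67 to 3.03), Ndufb8 had 24.5 and 98.7 (log2 2.01, 1.48 to 2.59), and Sdhd had 74.4 and 191 (log2 1.36). Uqcrq was at 112 and 241 CPM (log2 1.11), Cox6a1 at 280 and 492 (log2 0.82), Atp5a1 at 382 and 686 (log2 0.84) and Atp5g3 at 228 and 555 (log2 1.28). Each of these 7 genes was past 1.5-fold, and so were Ndufa11 (log2 2.22) and Sdhaf1 (1.98), with 5 and 6 UMIs in Sham. The members called lower were Cox7c and Ndufs3.

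Around the members in monocytic-like cells, 51 of 72 mitochondrial ribosome genes were higher and 1 lower, 8 of 13 TCA cycle enzymes were higher and 0 lower, and 5 of 6 carriers tested were higher, among them Slc25a5, an ADP/ATP carrier, at 306 and 738 CPM. The make-up of the class moved with these values. Cd74, which serves antigen presentation, was at 18610 CPM in Sham and 3002 in IRI24h-TDN, Ms4a7 at 454 and 231, and Adgre1, the macrophage marker F4/80, at 770 and 425. Lyz2 was at 3500 and 5019, Fcgr1 at 222 and 454 and C1qa at 1812 and 2343. The part of these shifts in the higher OXPHOS levels was not tested.

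In PTEC-like cells the OXPHOS sum in CPM was much the same in all libraries while their marker genes were lower. The log2 difference of the nuclear sum between Sham and IRI24h-TDN was -0.05, and ran from -0.25 to 0.02 under the alternatives. Nuclear members came to 31760 CPM in Sham, to 30730 after IRI in the mixture (0.968-fold) and to 31070 in IRI24h-TD, whereas the summed PTEC markers went from 80200 to 13050 CPM between Sham and IRI24h-TDN. In the same cells Havcr1 (kidney injury molecule 1) was at 14.7 CPM in Sham and 3468 in IRI24h-TDN, and Slc7a13, a transporter of the last proximal segment, at 1501 and 7.33. Of 89 members 8 were called higher and 8 lower, both shares under those of all genes (29.0% and 22.1%). With edgeR's TMM scaling the split was 1 higher and 17 lower, against 22.5% and 27.6% of all genes, and with median-of-ratios scaling 1 and 18, against 21.7% and 28.3%, so the even split holds on the CPM scale alone.

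Among PTEC-like members the highest was Cox7a2l, the supercomplex factor, at 99.2 CPM in Sham and 219 in IRI24h-TDN (log2 1.14, 0.98 to 1.31), followed by Ndufa12 (log2 0.74), Ndufb8 (0.73), Sdhaf2 (0.71) and Ndufb6 (0.69). With TMM scaling Ndufa12, Ndufb8, Sdhaf2 and Ndufb6 were at 0.56, 0.55, 0.53 and 0.51, all within 1.5-fold. The lowest, after Cox7c, were Uqcr11 (-1.72), Ndufs3 (-1.71), Ndufs5 (-1.03) and Ndufv3 (-0.69). Atp5g3 was at 2011 and 2452 CPM, Cox6a1 at 1101 and 1502 and Uqcrq at 560 and 776, while Sdha was at 449 and 301, all within 1.5-fold. Of 74 mitochondrial ribosome genes 32 were higher and 1 lower in CPM, against 29.0% and 22.1% of all genes. Only 153 PTEC-like cells stood for IRI24h-TDN against 1046 for Sham, and without correction between libraries 6 cells of IRI24h-TDN were PTEC-like, so that no value could be had.

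In podocyte-like cells, the largest class, the nuclear members summed to 13770 CPM (13730 to 13810) in Sham, 13610 (13570 to 13640) in IRI24h-TDN and 13620 in IRI24h-TD. Of 91 members 13 were lower and 2 higher in IRI24h-TDN, against 14% and 9.77% of all genes. The 2 higher members were Atp5l, a complex V subunit (7.02 and 16.5 CPM), and Ndufb8 (69.8 and 111 CPM). Cox6a1 (458 and 640 CPM), Atp5g3 (476 and 649), Sdhd (138 and 186) and Uqcrq (177 and 227) were higher within 1.5-fold. Uqcr10 was higher by 0.45 on the log2 scale, and the lowest after Cox7c were Cox7b2 (-2.25), Atp5g2 (-1.87), Cox7a1 (-1.82) and Ndufs3 (-1.69). Left without Cox7c alone, the sum differed by 0.04 on the log2 scale in place of -0.02, and with TMM scaling it differed by 0.077, so no direction is read.

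PEC-like cells had 20650 CPM after sham surgery, 18890 in the IRI mixture and 16780 in tdT+ cells after IRI. Of 90 members 11 were lower and 1 higher in IRI24h-TDN, against 18.5% and 10.6% of all genes, and Atp5l was the higher one. The podocyte marker list in these cells was at 5031 CPM in Sham and 10430 in IRI24h-TDN, and the PTEC list at 5748 and 1530. The summed log2 difference of -0.13 became -0.03 without the cluster rich in podocyte genes and 0.42 without correction between libraries.

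In mesangial and mural-like cells 12 of 87 members were lower and 5 higher, against 10.6% and 10% of all genes, and their sum was 20690 CPM in Sham and 19680 in IRI24h-TDN. Atp5l (log2 1.38), Ndufb8 (0.91), Ndufa8 (0.74), Ndufb2 (0.73) and Ndufaf7 (0.69) were the higher ones. In endothelial-like cells 5 of 67 were lower and 5 higher, against 16.3% and 13.4%, with sums of 12310 and 13050 CPM. The higher ones included Sdhb (log2 0.87), Cox6a1 (0.76), Cox5a (0.75) and Ndufb8 (0.71), and the lower ones were Cox7c, Uqcr11 (-1.57), Ndufab1 (-1.12), Uqcrb (-0.86) and Ndufc1 (-0.79).

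The tdT+ library after IRI was compared with the mixture after IRI in the 3 classes with enough cells. In podocyte-like cells 1 of 91 members was higher (Cox7b2, 25 and 79 UMIs) and 0 lower, against 0.972% and 2.22% of all genes, and the nuclear sum differed by 0.00 on the log2 scale. The mitochondrial-encoded share was nevertheless 3.36% (3.35 to 3.36) in IRI24h-TD and 3.88% in IRI24h-TDN, a log2 difference of -0.21. It was lower under every alternative tried for podocyte-like cells, from -0.23 to -0.17.

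In PEC-like cells the mitochondrial-encoded share was 4.08% in IRI24h-TD and 6.29% in IRI24h-TDN, a log2 difference of -0.63 (-0.63 to -0.62). The podocyte list in these cells was at 16490 CPM in IRI24h-TD and 10430 in IRI24h-TDN. The cluster rich in podocyte genes made up 369 of 614 and 193 of 393 of these cells. The part of this make-up in the difference was not tested. The difference stayed negative under all 10 alternatives tried, leaving that cluster out among them, from -0.85 to -0.47. Of 88 members 0 were higher and 2 lower, against 2.82% and 6.61% of all genes. Ndufs4 and Ndufs5 were the 2 lower members. In PTEC-like cells 1 of 84 was higher (Ndufaf7, 53 and 28 UMIs) and 2 were lower (Ndufaf6 and Ndufaf4), against 10.9% and 9.18% of all genes. These 2 libraries differ both in the sort and in their preparation, which cannot be told apart.

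One member moved alike in every class. Cox7c, a small subunit of complex IV, was between 12.3-fold and 45.1-fold lower in IRI24h-TDN than in Sham in all 10 classes: 556 and 19.8 CPM in podocyte-like cells, 893 and 29.7 in PEC-like, 1376 and 52.6 in PTEC-like, 2264 and 52.5 in ascending limb-like, 2705 and 59.9 in distal convoluted tubule-like, 1536 and 51.5 in connecting tubule and principal-like, 2256 and 56.8 in intercalated-like, 848 and 26.95 in mesangial and mural-like, 467 and 14.01 in endothelial-like and 363 and 29.6 in monocytic-like cells. The log2 difference ran from -5.50 in distal convoluted tubule-like to -3.62 in monocytic-like cells. In IRI24h-TD Cox7c was at 21.5 CPM in podocyte-like, 28.6 in PEC-like and 72.04 in PTEC-like cells. IRI24h-TDN thus stood low in all 10 classes, and IRI24h-TD in the 3 classes with enough cells.

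A shift of at least 1 on the log2 scale with 1 sign in every class was met by 1 of 90 usable nuclear members (1.11%), and by 130 of 11864 genes downward (1.10%) and 51 upward (0.430%), so the members are not apart from all genes in this. Of the transcript of Cox7c, 27.9% recurs in other annotated genes, and 52.4% of its last 400 bases. Atp5g2, Ndufs3, Ndufs5, Ndufab1, Uqcr11, Uqcrh and Atp5h were also lower in 10 of 10 classes, and Atp5l, Ndufb2 and Ndufb8 higher in 10 of 10. With Cox7c these are 8 of 86 members lower in every class (9.30%) and 3 higher (3.49%), among genes with at least 10 UMIs in each class, where 5.11% of all 8371 genes were lower in every class and 6.22% higher. Of these, Atp5l shares 68.5% of its transcript with other genes, Atp5h 47.9%, Ndufs3 35.8%, Ndufs5 31.1%, Atp5g2 14.8%, Ndufab1 12.3%, Uqcr11 10.9%, Uqcrh 7.83%, Ndufb8 4.06% and Ndufb2 2.29%. Cycs, which encodes cytochrome c and is no member, was likewise lower in all 10 classes, for instance at 87.3 and 19.6 CPM in podocyte-like cells. A difference shared by all classes sits with the library as much as with the injury, and these cannot be told apart with 1 library per condition.

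Several complex IV subunits have paralogs, of which Cox4i2 and Ndufa4l2 were nearly limited to certain classes. Cox4i2, the form linked to low oxygen, was at 155 CPM in mesangial and mural-like cells of Sham and at 101 in those of IRI24h-TDN. It was at 4.41 CPM in endothelial-like cells of Sham and at or under 0.967 CPM in the other 8 classes compared. Ndufa4l2, a paralog of Ndufa4 and a known hypoxia-inducible gene, was at 208 and 232 CPM in mesangial and mural-like cells, at 27 and 49.9 in fibroblast-like cells and at or under 1.39 CPM elsewhere among the classes compared. In mesangial and mural-like cells Cox4i2 was called lower after IRI (log2 -0.63, -0.89 to -0.37), and Ndufa4l2 stayed within 1.5-fold.

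Cox7a1, the heart and muscle form of subunit 7a, was highest in intercalated-like cells at 366 CPM in Sham and 73.5 in IRI24h-TDN (log2 -2.32, -2.53 to -2.11). In connecting tubule and principal-like cells it was at 146 and 17.4 CPM (log2 -3.06). It was lower in 8 of 9 classes with enough UMIs for a direction, none of its transcript recurs in another annotated gene, and IRI24h-TD had it at 2.27 CPM in podocyte-like cells against 6.28 in Sham. Cox7a2, the general form, was at 1142 and 623 CPM in intercalated-like cells. Cox6a2, the muscle form of subunit 6a, had few UMIs, 70 in Sham and 35 in IRI24h-TDN over all barcodes. Of the 10 classes only PTEC-like cells, at 4.04 and 8.63 CPM, had at least 10 of its UMIs in the 2 libraries together. Cox6b2, the testis form of 6b, was at or under 26.9 CPM in the 10 classes of Sham. Of the 3 genes for the ring protein of complex V, Atp5g2 was at or under 36.5 CPM in all 10 classes of Sham and lower in each after IRI.

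**Figure D4:**
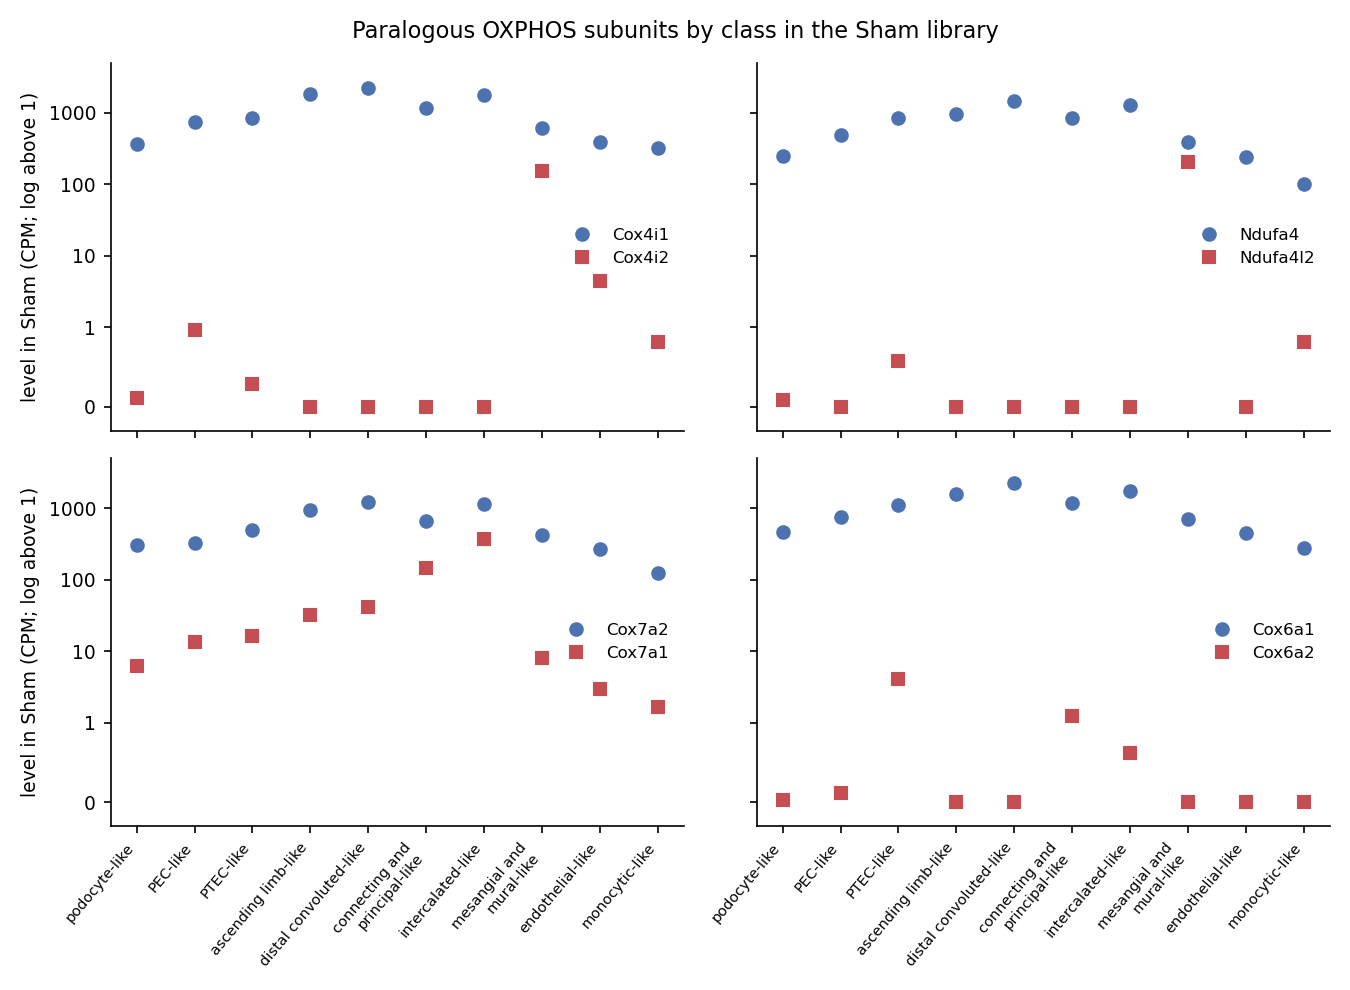
Levels in the Sham library (CPM, vertical axis, logarithmic above 1) of a widely expressed subunit (blue circles) and its paralog (red squares) in 10 classes, for Cox4i1 and Cox4i2, Ndufa4 and Ndufa4l2, Cox7a2 and Cox7a1, and Cox6a1 and Cox6a2. Cox4i2 and Ndufa4l2 stand out in mesangial and mural-like cells at 155 and 208 CPM, and Cox7a1 in intercalated-like cells at 366 CPM.

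Last, OXPHOS levels were set along the range from parietal to proximal tubule cells. Both classes together were split into 14 subclusters, and those with at least 3 PEC and 3 PTEC markers, each in at least 25% of cells, were called mixed. The mitochondrial-encoded share was 4.11% in the 1291 cells of PEC-like subclusters, 11.0% in the 1199 cells of mixed subclusters and 22.0% in the 811 cells of PTEC-like ones. The nuclear sum was 14350, 26430 and 37450 CPM in the same order. Mixed cells lay between the others in each of the 3 libraries, with 11.4%, 12.5% and 7.47% for Sham, IRI24h-TDN and IRI24h-TD and 26610, 27450 and 24550 CPM.

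The mixed subclusters differed among themselves. Subcluster 1, with a PTEC list at 8988 CPM, had 7.96% mitochondrial-encoded UMIs and a nuclear sum of 26620 CPM. Subcluster 3, with 372 of the 1199 mixed cells, had 14.9% and 28700 CPM, although its PTEC list (72930 CPM) was above and its PEC list (1344 CPM) below those of PTEC-like subcluster 4 (60470 and 1441 CPM), so its summed markers go against the name, and subcluster 10, with 65 of its 106 cells from IRI24h-TDN and a PTEC list at 5406 CPM, had 14.01% and 27260 CPM. In subcluster 3 the nuclear sum was 27070 CPM in Sham and 33550 in IRI24h-TDN (41 cells). The PTEC-like subclusters together had 38000 and 33900 CPM. Subclusters 11 and 12 also held podocyte genes, and 53.1% and 79.2% of their cells were among the top doublet scores. With all cells of the top 6% of doublet scores in each library removed, the mixed cells had 11.3% and 27030 CPM. Subcluster 4, of PTEC-like cells with a median of 2320.5 UMIs, had the highest share at 33.8%, and subclusters 2 and 9, counted as PEC-like, the lowest at 3.52% and 3.16%. Subclusters 2 (397 cells) and 9 (174 cells) had podocyte lists at 25920 and 29640 CPM and PEC lists at only 1484 and 865.6. Their summed markers thus go against the name too, and they are part of the 1291 PEC-like cells. The PEC-like subclusters 0, 5 and 13 had shares of 4.56%, 5.02% and 6.69%.

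**Figure D5:**
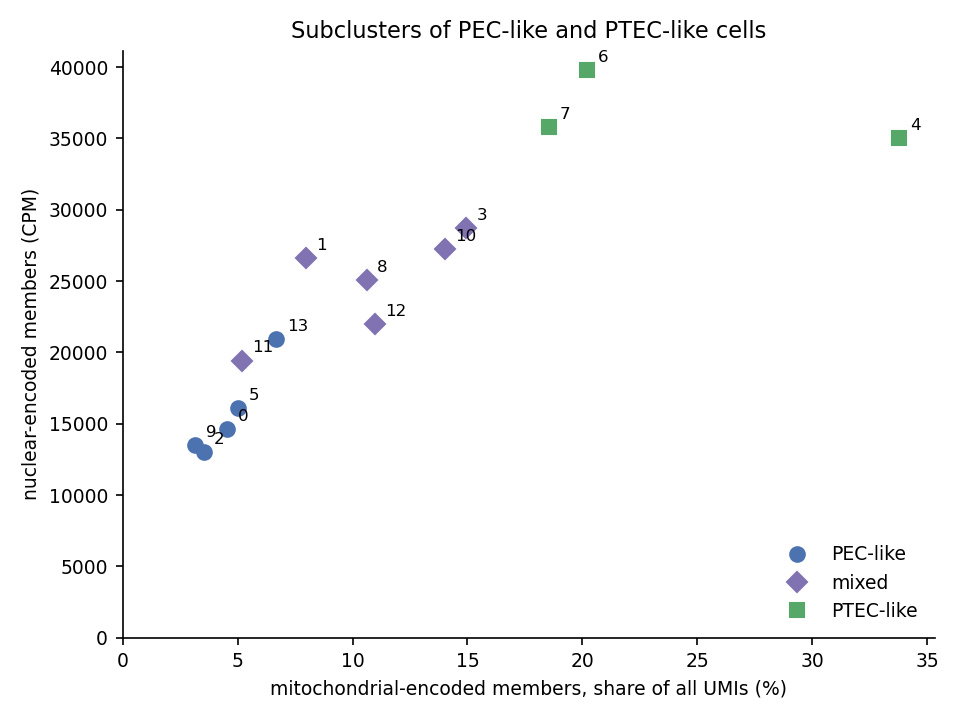
Mitochondrial-encoded share of all UMIs (%, horizontal axis) and nuclear-encoded level (CPM, vertical axis) in the 14 subclusters of PEC-like and PTEC-like cells, 1 numbered point each. PTEC-like subclusters (green squares) lie highest, mixed ones (purple diamonds) between 19420 and 28700 CPM, and PEC-like ones (blue circles) below them except subcluster 13 at 20920 CPM.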

How the data were processed

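The authors deposited, for each of 3 libraries, a table of raw UMI counts per gene and barcode with no normalization. The submitters' processing notes name CASAVA 1.8, UMI-tools, Seurat and the build mm10, and the aligner and its handling of reads that fit several genes are not given in the sources used here.

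Barcodes with fewer than 200 genes or over 50% mitochondrial UMIs were left out. Counts were scaled and put on a log scale, 2000 variable genes were chosen without OXPHOS, mitochondrial, ribosomal and haemoglobin genes, and library differences were removed from 30 principal components by Harmony (theta 2). A graph of 15 neighbours (igraph 0.11.9) was cut into clusters at resolution 1 with leidenalg 0.10.2, which were named from marker lists (at least 3 markers, each in 25% of cells). Leaving a cluster unnamed when none of its own markers was among its leading genes and its score was weak was a rule added after the clusters were seen, and the limit of 5 usable classes for a shift in all classes was added too. Doublets were scored but kept, and removing the top 6% of scores per library was an alternative.

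Sums per class and library gave CPM and log2 ratios, with a floor of 3 counts. The software was Python 3.11.15, numpy 2.4.6, scipy 1.17.1, pandas 2.3.3 and scikit-learn 1.9.0. TMM factors came from edgeR 4.0.16 (R 4.3.3), used for nothing else. Recurring sequence was counted as 50-base stretches of GENCODE M21 transcripts (GRCm38). The fold changes were tested on simulated data. The members and gene lists were chosen with earlier results of these data known. Named are all mitochondrial-encoded members, the 2 nuclear members with most UMIs per complex, paralogous subunits, members shifted alike in all classes, the 5 most changed members each way per comparison (here most of those from Sham to IRI24h-TDN, and for IRI24h-TD against IRI24h-TDN those called), and extremes of related lists. Mt-Nd2, mt-Co1 and the other single differences and subclusters described were picked out after their values were seen. Alternatives were other limits on cells, clustering, scaling and filters. The values of 1 nuclear member are not reported here by gene, though it is counted in the sums.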

Additional observations from a re-analysis of the deposited data

Results flagged for a closer look

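The nuclear-encoded members differed in opposite directions after IRI, by 0.58 on the log2 scale in monocytic-like cells and -0.66 in ascending limb-like cells. Atp5a1 did so by 0.84 in monocytic-like and -0.73 in ascending limb-like cells, and Uqcrq by 1.11 in monocytic-like and -0.52 in distal convoluted tubule-like cells. These are the pairs of classes with the highest and the lowest value, both at least 0.5 from 0, among the sums and the 10 nuclear members with most UMIs in their complexes. With 1 library per condition the difference between classes was not tested.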

How the results depend on the processing

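No paired analysis was possible because each condition has 1 library and the labels give no replicate numbers. Of 745 values under alternatives, 482 stayed within the counting interval of the reported value (counts within 1.5 times) and 243 moved further. The other 20 changed sign from a reported value whose interval left out 0. Sign changes from a value whose interval held 0 are not among these 20. The distal convoluted tubule-like mitochondrial-encoded difference of 0.004, for instance, ran from -0.281 to 0.253. The signs of the nuclear sum in ascending limb-like, distal convoluted tubule-like, intercalated-like and monocytic-like cells held under every alternative that gave a value. Those of podocyte-like, PEC-like, PTEC-like, mesangial and mural-like and endothelial-like cells did not. Leaving out a replicate is not possible. With the 20% limit no cluster was named distal convoluted tubule, and without correction PTEC-like cells had 6 and 1 cells in the IRI libraries, so these gave no value. Low cell numbers limit the IRI24h-TD values outside podocyte-like, PEC-like and PTEC-like cells. The cause was not tested. Values below are log2 differences of IRI24h-TDN from Sham unless named otherwise, with mitochondrial-encoded shares called mt and nuclear sums called nuclear.

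Without a limit on mitochondrial UMIs, mt was -0.124 (podocyte-like), -0.032 (PEC-like), 0.044 (PTEC-like) and -0.14 (endothelial-like), and nuclear -0.039 (PEC-like), -0.71 (ascending limb-like), -0.69 (distal convoluted tubule-like) and 0.52 (monocytic-like). With a limit of 20%, mt was -0.10, -0.12 and 0.16 (podocyte-like, PEC-like, PTEC-like) and 0.37 (ascending limb-like), nuclear -0.024, -0.014, -0.21, -0.57 and 0.51 (PEC-like, PTEC-like, ascending limb-like, intercalated-like, monocytic-like), Atp5g3 0.29 in ascending limb-like cells, and 15 members were lower there. With at least 500 genes, mt was -0.063 and -0.011 (PEC-like, PTEC-like) and nuclear -0.031, -0.072, -0.68, -0.69 and 0.55 (PEC-like, PTEC-like, ascending limb-like, distal convoluted tubule-like, monocytic-like).

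Without correction between libraries, mt was -0.12 and 0.83 (podocyte-like, PEC-like), nuclear 0.42, -0.61 and -0.70 (PEC-like, ascending limb-like, distal convoluted tubule-like), and 2 members moved alike. At resolution 0.5, mt was -0.13 and -0.067 (podocyte-like, PEC-like) and nuclear -0.066, -0.69 and 0.55 (PEC-like, distal convoluted tubule-like, monocytic-like). At resolution 2, mt was -0.13, 0.096 and -0.041 (podocyte-like, PEC-like, PTEC-like) and nuclear 0.04, -0.69 and 0.46 (PEC-like, distal convoluted tubule-like, monocytic-like). Without top doublet scores, mt was -0.15 and -0.084 (PEC-like, PTEC-like), nuclear -0.078, -0.78 and -0.69 (PTEC-like, ascending limb-like, distal convoluted tubule-like), and mixed subclusters had 11.3% and 27030 CPM.

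The following were chosen after seeing the data. Without the podocyte-rich cluster, PEC-like mt was 0.027 and nuclear -0.032. In intercalated-like clusters 18 and 19 alone, nuclear was -0.51 and -0.70. In cells with 5000 to 20000 UMIs, mt was -0.24 and 0.31 (PEC-like, PTEC-like), nuclear -0.14, -0.13, -0.59, -0.58, -0.039 and 0.43 (PEC-like, PTEC-like, distal convoluted tubule-like, intercalated-like, endothelial-like, monocytic-like), 2 members moved alike, and mixed subclusters had 10.5% and 25300 CPM. Without members that share at least 10% of their transcript, nuclear was 0.073, -0.033, 0.019, -0.55, -0.52, -0.53, 0.027 and 0.69 (podocyte-like, PEC-like, PTEC-like, ascending limb-like, distal convoluted tubule-like, intercalated-like, mesangial and mural-like, monocytic-like).

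With CPM of all UMIs, nuclear was -0.60 and -0.58 (ascending limb-like, intercalated-like). TMM and median-of-ratios scaling, which shift ascending limb-like genes by 0.23 and 0.21 and PTEC-like genes by -0.18 and -0.20, gave nuclear 0.077 and 0.04 (podocyte-like), -0.10 and -0.11 (PEC-like), -0.23 and -0.25 (PTEC-like), -0.43 and -0.45 (ascending limb-like), -0.50 and -0.52 (distal convoluted tubule-like), -0.53 and -0.53 (intercalated-like) and 0.46 and 0.41 (monocytic-like), with 17 and 18 members lower in PTEC-like and 23 and 24 in ascending limb-like cells. As a mean over cells, mt was -0.123, -0.175, -0.061 and -0.06 (podocyte-like, PEC-like, PTEC-like, monocytic-like) and nuclear -0.011, -0.098, -0.15, -0.49 and -0.60 (podocyte-like, PEC-like, PTEC-like, distal convoluted tubule-like, intercalated-like). At 2-fold, 4, 10, 11 and 14 members were lower (PTEC-like, ascending limb-like, distal convoluted tubule-like, intercalated-like) and 22 higher (monocytic-like). At a shift of 1.5-fold in all classes 3 members moved alike. Without Cox7c, nuclear was 0.04, -0.067, 0.014, -0.59, -0.58, -0.58 and 0.65 (podocyte-like, PEC-like, PTEC-like, ascending limb-like, distal convoluted tubule-like, intercalated-like, monocytic-like).

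For IRI24h-TD against IRI24h-TDN, podocyte-like mt ran from -0.23 (no limit on mitochondrial UMIs) through -0.21 (5000 to 20000 UMIs) and -0.18 (mean over cells) to -0.17 (20% limit), and PEC-like mt was -0.58 and -0.47 (no limit, 20%), -0.57 (500 genes), -0.85 (no correction), -0.61 and -0.59 (resolutions 0.5 and 2), -0.47 (5000 to 20000 UMIs) and -0.56 (mean over cells). PEC-like nuclear was -0.15 (500 genes), -0.29 (no correction), -0.13 (resolution 2), -0.13 (no podocyte-rich cluster), -0.11 (5000 to 20000 UMIs), -0.14 (all UMIs), -0.11 (TMM), -0.12 (median of ratios), -0.12 (mean over cells) and -0.15 (no sharing members). Podocyte-like nuclear was 0.009 (all UMIs), -0.009 (median of ratios) and 0.016 (no sharing members).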
